A study of Mus musculus with 9 samples.

Results

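The genes described here encode the proteins of the cytosolic ribosome, and they were taken as every gene symbol of the form Rpl or Rps followed by a number, with an optional a or x, plus Rplp0, Rplp1, Rplp2 and Rpsa. This gave 76 genes among the 23992 gene symbols of the tables, 46 for the large subunit and 30 for the small subunit, each represented by the transcript with the most reads. All 76 were abundant enough to be tested among 10702 genes, so no member is missing from the counts below. Messenger RNA came from regulatory T cells (Tregs), the T cells that restrain immune responses, of the BALB/c mouse strain. The source tissue is given as spleen, and the animals' age is not given in the sources used here. The cells carried a green fluorescent reporter of Foxp3, and the cells of all 3 groups carried oIL-2Rβ, an orthogonal form of the IL-2 receptor's beta chain, delivered by transduction and tagged with human EGFR. Per the treatment label, 48 hours on beads against CD3 and CD28, in human IL-2 at 1000 IU/mL, were followed by magnetic purification and a night without the cytokine. The groups then differed in a 4 hour incubation without IL-2, with wild-type (WT) IL-2 at 20000 IU/mL, or with ortho IL-2, the engineered ligand of the transduced chain, at 2000000 IU/mL. Each group has 3 libraries. Doses of the 2 ligands were not matched, so differences between them are differences between these conditions. No label ties the libraries of a group to separate mice or cultures, so the p-values measure the spread between libraries, which may be technical.

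The ribosome makes all cytosolic proteins, and most of its proteins are present as a single copy per ribosome. Their mRNAs are abundant and stable, and most begin with a 5′ terminal oligopyrimidine (TOP) stretch. This stretch lets the kinase mTORC1, through Larp1 and other factors, switch their translation on or off without a change in mRNA. IL-2 is a growth signal for T cells and activates mTORC1, so translation of these mRNAs can respond in ways that mRNA levels do not show. The values below are mRNA levels only.

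The sequence around the transcription start was searched for such a stretch. RefSeq promoter windows on GRCm38.p6 (250 bases before to 50 bases after the start) were found for 56 of the 76 members. A run of at least 6 letters, all C or T with at least 1 C, was searched on the transcribed strand. Such a run lay between 30 bases before and 50 bases after the start in 52 of 56 members (92.9%), against 65.0% of the 27025 symbols with a window. A run reaching within 5 bases of the start was present in 29 of 56 members (51.8%), against 23.8%. Both counts include runs that end before the start, as in the Rpl4 window below. The first base from the start was a C in 19 of 56 members (33.9%), against 18.9%. Another pair of motifs was searched on both strands anywhere in the window. CCGGAAG, a core recognised by ETS factors, was found in 41.1% of the members and 9.93% of all symbols. AAGATGG, a core of the YY1 motif, was found in 16.1% and 7.28%. The run near the start was present in 18 of 34 large and 11 of 22 small subunit members. A match describes letters and is not evidence of binding. The following windows of 45 bases, 20 before and 25 from the start onward, are shown 5′ to 3′ with the run nearest the start in capitals. The first 6 belong to members whose mRNA was called changed by ortho IL-2 and the last 3 to members that were not. All were chosen from members with a run near the RefSeq start, which can lie inside the outer end of the GENCODE gene span given further on.
Rpl4, chr9:64173367-64173411, plus strand: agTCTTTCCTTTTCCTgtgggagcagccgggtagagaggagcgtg
Rpl15, chr14:18270962-18271006, minus strand: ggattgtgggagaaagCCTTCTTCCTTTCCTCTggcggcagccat
Rpl18, chr7:45718051-45718095, plus strand: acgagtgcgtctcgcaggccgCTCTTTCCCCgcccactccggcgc
Rps2, chr17:24720043-24720087, plus strand: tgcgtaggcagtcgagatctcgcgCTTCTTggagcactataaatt
Rps10, chr17:27635220-27635264, minus strand: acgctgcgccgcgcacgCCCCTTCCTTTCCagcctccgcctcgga
Rps15a, chr7:118116123-118116167, minus strand: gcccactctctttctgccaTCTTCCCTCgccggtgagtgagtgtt
Rps6, chr4:86857343-86857387, minus strand: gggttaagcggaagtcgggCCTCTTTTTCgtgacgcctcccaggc
Rplp2, chr7:141447631-141447675, plus strand: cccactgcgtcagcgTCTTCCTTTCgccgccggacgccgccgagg
Rpl38, chr11:114668560-114668604, plus strand: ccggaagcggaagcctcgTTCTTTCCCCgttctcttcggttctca

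Depth was 16581624 to 58182835 reads in the transcripts taken, and levels are given as CPM, reads scaled to the library's size as set by the TMM method. The cells had the markers of Tregs: Foxp3 lay between 74.4 and 199.98 RPKM and Cd4 between 94.2 and 131 RPKM. The summed RPKM of the B cell, myeloid, CD8 T and NK cell, and erythroid marker lists was at most 2.71, 1.93, 8.74 and 0.828 in any library. Lyz2, Csf1r and Hbb-bt were at 0 in 5, 6 and 7 of 9 libraries. The CD8 T and NK list differed with stimulation, from 4.72 to 5.11 RPKM summed in the no IL-2 libraries to 6.75 to 8.74 in the others, and its part in the results was not tested. In such bulk samples, fewer cells of a type and less RNA per cell cannot be told apart. WT IL-2 replicate 1 and ortho IL-2 replicate 3 stood apart from the other 7 libraries. Over all genes, transcripts with at least 55% GC were higher relative to those with at most 45% GC by 0.37 and 0.43 (log2 difference from the mean library) in these libraries, against -0.28 to 0.17 in the others. The contrast also separated the groups: it was -0.28, -0.22 and -0.24 without cytokine, and -0.14 or higher in every stimulated library. GC contrast and IL-2 group are thus confounded, and a GC offset can also remove a difference between the groups. Values without both libraries and with an offset for GC content are given beside a number of the results. Leaving both out was decided after seeing the data and removes 1 library from each stimulated group. Reads of ribosomal protein genes can also be shared with processed copies, and the use of strand is not given in the sources used here.

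Ribosomal protein mRNAs were among the most abundant in these cells. By length-scaled level (RPKM, mean over 9 libraries), 61 of the 100 highest genes and 73 of the 200 highest were members. The median member reached 536 RPKM, against 9.12 for all genes tested. Members were not at equal levels: the interquartile range was 401 to 693 RPKM, and the extremes differed 13.7-fold. The 5 highest were Rps27 at 1102 RPKM, Rpl19 at 1014, Rpl23a at 979.7, Rps4x at 966 and Rps24 at 929. Rpl19 and Rpl23a line the end of the tunnel through which the new protein leaves, and Rps24 is a small subunit protein mutated in some cases of Diamond-Blackfan anaemia. The 5 lowest were Rps15a at 80.3 RPKM, Rpl22 at 115, Rpl31 at 165, Rpl15 at 180.1 and Rpl14 at 224. Rps15a was represented by a row of 5134 bases, and Rpl22, an RNA-binding protein needed for T cell development, by one of 2357 bases. A longer row gives a lower length-scaled level for the same reads, and which form the cells used was not tested. The median was 484 RPKM over large and 548 RPKM over small subunit members.

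The share of the reads in gene transcripts that fell in ribosomal protein genes overlapped between the groups. Members took 4.57%, 4.73% and 4.51% without cytokine, 4.87%, 4.72% and 4.58% under WT IL-2, and 4.61%, 4.79% and 5.12% under ortho IL-2. The means were 4.60% ± 0.112, 4.72% ± 0.146 and 4.84% ± 0.257 (SD, n = 3 each). Large subunit members took 2.77% ± 0.0637, 2.85% ± 0.0867 and 2.92% ± 0.165, and small subunit members 1.83% ± 0.0498, 1.87% ± 0.0602 and 1.93% ± 0.0928. The ratio of large to small subunit reads was 1.51 ± 0.0137, 1.53 ± 0.00982 and 1.51 ± 0.0202. Single libraries ranged from 1.501 to 1.528, 1.518 to 1.537 and 1.493 to 1.534, so the groups overlapped. Against the divisor the authors used for RPKM, which also counts reads outside these transcripts, the share was 2.74% ± 0.149 in the no IL-2 group, 3.22% ± 0.214 under WT IL-2 and 3.42% ± 0.358 under ortho IL-2, and the stimulated libraries were all above the unstimulated ones. Reads outside the transcripts taken made up 40.5% ± 2.43, 31.7% ± 2.96 and 29.4% ± 3.64 of it, in the same order. Levels per cell were not measured, so a change in total RNA per cell that moved all genes alike is not visible here.

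**Figure D1:**
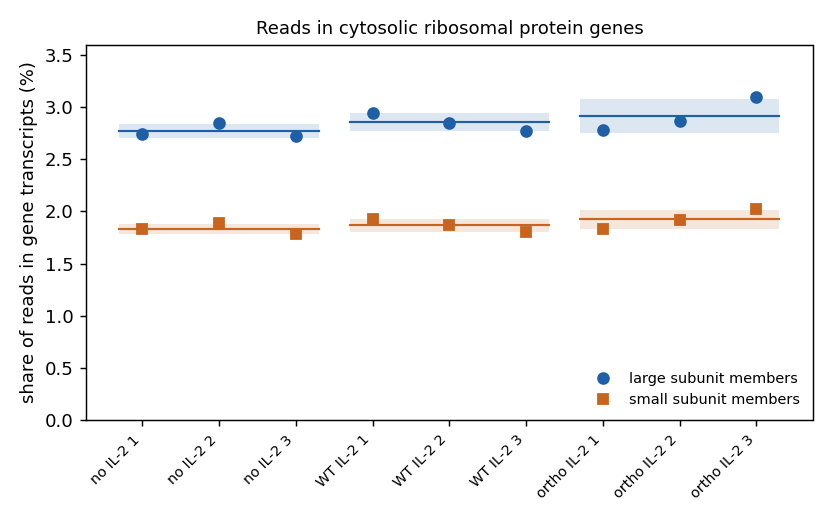
Share of reads (%, vertical axis, from 0) that fell in large subunit (circles) and small subunit (squares) ribosomal protein genes in each of the 9 libraries, with the mean (line) and SD (band) of each group of 3. The groups overlap in both shares, which lie between 2.73% and 3.10% for the large and 1.78% and 2.02% for the small subunit.

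The first comparison asked what WT IL-2 does to these mRNAs. Only 4 of 76 members were called, all higher, 2 of each subunit, and Rpl4, Rpl41 and Rps2 were among them. Of all genes tested, 47.9% were called, 25% higher and 22.9% lower. The median log2 fold change was 0.01 over large and 0.04 over small subunit members, against 0.01 over all genes, and members ranged from -0.17 to 0.38. The small subunit median was -0.0062 without WT IL-2 replicate 1, -0.0096 without both libraries of high GC contrast and 0.0034 with GC offsets. No member changed by more than 0.5 on the log2 scale, against 20.1% of all genes. The 3 libraries with WT IL-2 did not overlap the 3 without in 12 members, 10 higher and 2 lower, while this held for 58.8% of all genes.

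Rpl4, which lines the exit tunnel with a long loop (chromosome 9, 64173375 to 64178666, GRCm38), had the smallest p of the members in this comparison. Its levels were 1379.6, 1441 and 1393 CPM without cytokine, 1569, 1571 and 1587 under WT IL-2 and 1512, 1530.4 and 1621 under ortho IL-2. All stimulated libraries lay above all unstimulated ones, a difference of 0.17 (SE 0.04, edgeR adjusted p = 0.0107) for WT IL-2. The call held in all 25 alternative analyses of this comparison. Rpl41, the shortest ribosomal protein, lies where the subunits meet and was at 487, 494 and 475 CPM without cytokine, 574, 515 and 552 under WT IL-2 and 548, 538 and 607 under ortho IL-2. It differed by 0.17 (SE 0.06, edgeR adjusted p = 0.0342) with WT IL-2, and by 0.04 (edgeR adjusted p = 0.417) with GC offsets, which ended the call. Rps2, at the channel where mRNA enters the small subunit (chromosome 17, 24718116 to 24721929), was at 316, 328 and 298 CPM without cytokine, 429.9, 359 and 349 under WT IL-2 and 381, 367 and 456 under ortho IL-2. Its difference with WT IL-2 was 0.27 (SE 0.10, edgeR adjusted p = 0.0433), and 0.13 (edgeR adjusted p = 0.0376) with GC offsets. The count of 4 rested on single libraries: with the first or the third no IL-2 library left out it was 1, and with the second, or with WT IL-2 replicate 1, left out it was 2, while 3 members were called lower without WT IL-2 replicate 2. In these fits 20.3% to 24.2% of all genes were called higher, and 21.2% were lower without WT IL-2 replicate 2. With the authors' RPKM divisor as library size, which put the median of all genes at 0.22 on the log2 scale, 38 of 76 members were called higher, against 43.3% of all genes, and 0 lower. Relative to that median the members' medians moved by under 0.01.

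The second comparison asked the same of ortho IL-2. With it, 12 of 76 members were called, 11 higher and 1 lower. Of all genes tested, 56% were called, 28.5% higher and 27.4% lower. The 11 included Rpl4, Rpl8, Rpl15, Rpl18 and Rpl41 of the large subunit and Rps2, Rps10, Rps15, Rps19 and Rps29 of the small subunit, and the member called lower was Rps15a. The median log2 fold change was 0.03 over large and 0.07 over small subunit members, against 0.01 over all genes, with a range of -0.18 to 0.50. A change of more than 0.5 was reached by 1 member, Rpl36, which was not called, and by 23.2% of all genes. The ortho IL-2 libraries did not overlap the no IL-2 libraries in 29 members, 23 higher and 6 lower, against 66.1% of all genes. Both IL-2 comparisons used the same 3 unstimulated libraries, so their agreement on Rpl4, Rpl41 and Rps2 is not independent.

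**Figure D2:**
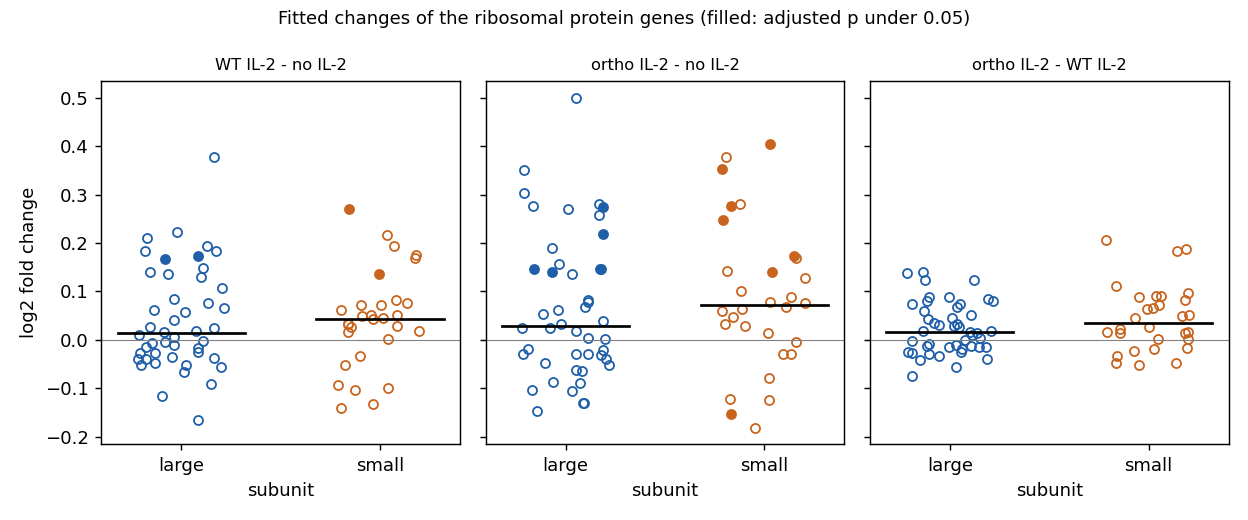
Fitted log2 fold change (vertical axis) of each of the 46 large and 30 small subunit members in the 3 comparisons; filled points have an edgeR adjusted p under 0.05, open points do not, and black lines are medians. Members gather near 0, with 4, 12 and 0 filled points in the 3 panels.

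Rps19, which is needed to mature the small subunit and is the gene most often mutated in Diamond-Blackfan anaemia (chromosome 7, 24884371 to 24889806), had the smallest p of the members with ortho IL-2. Its levels were 275, 287 and 256 CPM without cytokine, 371, 284 and 295 under WT IL-2 and 346, 346 and 392 under ortho IL-2. With ortho IL-2 all 3 libraries lay above all unstimulated ones (log2 fold change 0.41, SE 0.10, edgeR adjusted p = 0.00663). With WT IL-2 the groups overlapped, and the difference of 0.22 (SE 0.10, edgeR adjusted p = 0.0958) did not pass. With GC offsets the ortho IL-2 difference was 0.11 (edgeR adjusted p = 0.059), which ended the call. Rps29, a zinc-binding protein of the small subunit head, was at 410.3, 418 and 365 CPM without cytokine, 482, 382 and 390.4 under WT IL-2 and 468, 504 and 474 under ortho IL-2. It was high in all ortho IL-2 libraries and in WT IL-2 replicate 1 (log2 fold change 0.28, SE 0.09, edgeR adjusted p = 0.0242). Its call held with GC offsets, at 0.18 (edgeR adjusted p = 0.0491). Rps2 differed by 0.35 (SE 0.10, edgeR adjusted p = 0.0122) and remained called in all 25 alternatives of this comparison. Rpl4 differed by 0.15 (SE 0.04, edgeR adjusted p = 0.017). Rps15, close to the decoding site in the head, was at 557, 578 and 541 CPM without cytokine, 621, 575 and 579 under WT IL-2 and 606, 618 and 666 under ortho IL-2. Its difference was 0.17 (SE 0.05, edgeR adjusted p = 0.0195), and -0.08 (edgeR adjusted p = 0.234) with GC offsets, where the sign turned.

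Rpl15, a large subunit protein buried in the ribosomal RNA, was at 456, 473 and 479.8 CPM without cytokine, 531, 506 and 511 under WT IL-2 and 504, 493 and 553 under ortho IL-2, with both sets of stimulated libraries above the unstimulated ones. It passed with ortho IL-2 at 0.14 (SE 0.05, edgeR adjusted p = 0.0431), while WT IL-2 gave 0.14 (SE 0.05, edgeR adjusted p = 0.0527). With GC offsets both differences were larger and passed, at 0.24 (edgeR adjusted p = 0.0304) for WT and 0.30 (edgeR adjusted p = 0.00946) for ortho IL-2. Rpl18, another large subunit protein, was at 383, 413 and 377 CPM without cytokine, 419, 401 and 401 under WT IL-2 and 435.40, 413 and 449 under ortho IL-2. Its difference with ortho IL-2 was 0.15 (SE 0.05, edgeR adjusted p = 0.0329), and it turned to -0.12 (edgeR adjusted p = 0.129) with GC offsets. Rps15a was the member called lower, at 668, 689 and 641 CPM without cytokine, 582, 645 and 634 under WT IL-2 and 574, 634 and 589 under ortho IL-2 (log2 fold change -0.15, SE 0.06, edgeR adjusted p = 0.0422). The ortho IL-2 libraries all lay below the unstimulated ones, but the call ended with GC offsets at -0.05 (edgeR adjusted p = 0.269). On the authors' RPKM divisor its difference turned positive, at 0.12, with the median of all genes at 0.29.

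The count of 11 with ortho IL-2 was also sensitive to single libraries. It was 4 without no IL-2 replicate 1, 4 without no IL-2 replicate 3, 6 without ortho IL-2 replicate 3 and 21 without WT IL-2 replicate 1, a library of neither group in this comparison. Shares of all genes called higher in these fits were 23.0%, 24.4%, 23.8% and 31.6%. The count called lower was 5 without ortho IL-2 replicate 2 and 2 without WT IL-2 replicate 1. It was 0 on leaving out the first or the second no IL-2 library, the third WT library, or the first or the third ortho library. Over the fits without 1 library, 21.3% to 30.3% of all genes were called lower. Without both libraries of high GC contrast, 19 members (25%) were called higher and 2 lower (edgeR), against 30.3% and 28.8% of all genes. The medians were then 0.01 over large and 0.03 over small subunit members. With GC offsets, 9 were called higher and 3 lower, against 30.1% and 29.8% of all genes, and both medians were 0.02. Rpl4, Rps2, Rps29 and Rpl15 were called higher with and without the offsets, and over all 25 alternatives they were called in 22, 25, 23 and 15. With the offsets Rpl31, Rpl32, Rps20 and Rps26 were called higher and Rpl26, Rpl35 and Rps27 lower, though none of these 7 was called in the main analysis. Rpl26 was also called lower by DESeq2 without offsets (DESeq2 adjusted p = 0.0481). DESeq2 called 17 higher and 3 lower, against 27.9% and 28.6% of all genes. With the RPKM divisor as library size 65 were higher (85.5% of the members, against 53.3% of all genes) and 0 lower (8.84% of all genes).

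Grouped by place in the ribosome, no list of large or small subunit members held more than 2 called genes in either comparison. The P stalk, the flexible arm that recruits the elongation factors, showed the highest medians of the large subunit groups: 0.20 with WT and 0.29 with ortho IL-2 over its 4 members, none of them called. Rplp0, its base, was at 719, 813 and 761 CPM without cytokine, 993, 815 and 814 under WT IL-2 and 894, 813 and 1071 under ortho IL-2. The highest unstimulated library was level with the lower stimulated ones, and the differences of 0.19 (SE 0.11, edgeR adjusted p = 0.167) and 0.28 (SE 0.11, edgeR adjusted p = 0.0521) did not pass. Without both libraries of high GC contrast they were 0.09 (edgeR adjusted p = 0.202) and 0.16 (edgeR adjusted p = 0.0299), the second past the threshold. Rplp1 was at 370.2, 395 and 361 CPM without cytokine, 554, 352 and 397 under WT IL-2 and 433.11, 409.6 and 592 under ortho IL-2. Rplp2, its partner in the stalk dimers, was at 222, 242 and 202 CPM without cytokine, 334, 224 and 220.4 under WT IL-2 and 235, 251 and 337 under ortho IL-2. In both genes WT IL-2 replicate 1 and ortho IL-2 replicate 3 were the highest libraries. Without them the ortho IL-2 difference was 0.17 (edgeR adjusted p = 0.0258) for Rplp1 and 0.13 (edgeR adjusted p = 0.112) for Rplp2, and the WT IL-2 differences were -0.01 (edgeR adjusted p = 0.934) and -0.01 (edgeR adjusted p = 0.937). Leaving out the highest libraries, a choice made after seeing the data, narrows the spread. Passing the threshold without them, as Rplp0 and Rplp1 did, is therefore not separate support for a change. Rpl12, at the stalk base, differed by 0.02 and 0.07. With GC offsets the stalk medians were 0.07 and 0.12.

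The 5S RNP carries Rpl5 and Rpl11, which with Rpl23 can bind MDM2 and so activate p53 when ribosome assembly is disturbed. None of the 3 was called, and their median was -0.04 with WT and -0.10 with ortho IL-2. Rpl5 was at 1475, 1409.7 and 1396 CPM without cytokine, 1217, 1444 and 1355 under WT IL-2 and 1255, 1397 and 1258 under ortho IL-2, with overlapping groups (log2 fold change -0.13, SE 0.07, edgeR adjusted p = 0.131 for ortho IL-2). Rpl23 was at 939.9, 922 and 915 CPM without cytokine, 855, 931 and 938 under WT IL-2 and 814, 893 and 879 under ortho IL-2, and its ortho IL-2 libraries lay below the unstimulated ones by a difference that did not pass, -0.10 (SE 0.05, edgeR adjusted p = 0.121). Rpl11 differed by -0.04 and 0.00. Of 8 genes along the exit tunnel, Rpl4 alone was called, and the list's medians were -0.03 and -0.04. Rpl39, a small protein of the tunnel wall, and Rpl26, at its end, differed by -0.15 and -0.11 with ortho IL-2. The list named for the peptidyl transferase centre, where peptide bonds form, holds 4 genes. Of these, Rpl41, placed above where the subunits meet, was called higher with both ligands, and Rpl8 with ortho IL-2. Rpl8 was at 475, 507 and 469 CPM without cytokine, 601, 514 and 494 under WT IL-2 and 562, 547 and 644 under ortho IL-2 (log2 fold change 0.27, SE 0.08, edgeR adjusted p = 0.0196), and with GC offsets its difference was 0.02 (edgeR adjusted p = 0.743). Rpl3 and Rpl10, the other two, differed by 0.02 and -0.02 with ortho IL-2. Rpl38, known for a role in translating Hox mRNAs, differed by -0.05, and Rpl22 by -0.06. Rpl36 had the largest fitted change of all members and was highest in the same 2 libraries, at 147, 155 and 157 CPM without cytokine, 263, 158 and 175 under WT IL-2 and 186, 174 and 288 under ortho IL-2 (log2 fold change 0.50, SE 0.21, edgeR adjusted p = 0.0703). Without these libraries its ortho IL-2 difference was 0.24 (edgeR adjusted p = 0.00243), smaller and past the threshold, and with GC offsets 0.16 (edgeR adjusted p = 0.232). Rpl13 was at 466, 524 and 480.2 CPM without cytokine, 626, 498 and 496 under WT IL-2 and 573, 528 and 684 under ortho IL-2, again highest in these libraries (log2 fold change 0.28, SE 0.11, edgeR adjusted p = 0.0545). Its difference was 0.17 (edgeR adjusted p = 0.0179) without them and 0.05 (edgeR adjusted p = 0.432) with GC offsets. For Rpl36 and Rpl13 the libraries left out, chosen after seeing the data, were the highest, and leaving them out narrows the spread. Passing without them is therefore not separate support for a change.

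In the small subunit, Rps2 was the only called gene of the 3 at the mRNA entry channel, whose medians were 0.05 and 0.14. The mRNA exit platform was represented by 5 members, with Rps3a listed in the tables only as Rps3a1, and none was called. Rps28 was at 198, 186 and 169.8 CPM without cytokine, 274, 185 and 174 under WT IL-2 and 207, 233 and 279.7 under ortho IL-2, with ortho IL-2 libraries above the unstimulated ones and a difference that did not pass, 0.38 (SE 0.17, edgeR adjusted p = 0.0766). Without both libraries of high GC contrast the difference was 0.25 (edgeR adjusted p = 0.00897). These were its highest libraries and were left out after seeing the data, which narrows the spread, so this is not separate support for a change. Rpsa, Rps14 and Rps26 differed by 0.08, -0.08 and 0.07. Of the 4 genes of the decoding centre and head, Rps15 was called with ortho IL-2, while Rps16 and Rps18 differed by 0.03 and 0.13. Of the 3 proteins of the beak, a projection of the small subunit head, Rps10 was called with ortho IL-2. It was at 322, 343 and 329 CPM without cytokine, 403, 347 and 372 under WT IL-2 and 377, 373 and 429 under ortho IL-2 (log2 fold change 0.25, SE 0.07, edgeR adjusted p = 0.0134), and its difference turned to -0.07 (edgeR adjusted p = 0.314) with GC offsets. Rps12 differed by 0.17 (SE 0.08, edgeR adjusted p = 0.0944) and Rps27a, made as a fusion to ubiquitin, by 0.05. Rps6, the substrate of the S6 kinases downstream of mTORC1, was at 1145, 1146 and 1112 CPM without cytokine, 1063, 1193 and 1187 under WT IL-2 and 1080.1, 1128 and 1124 under ortho IL-2, with overlapping groups (log2 fold change -0.03, SE 0.05, edgeR adjusted p = 0.642 and 95% interval -0.15 to 0.09 for ortho IL-2). The 3 small subunit mRNAs among the 5 highest had negative differences with ortho IL-2. Rps24 differed by -0.18 (SE 0.08, edgeR adjusted p = 0.0835), Rps4x by -0.12 (SE 0.06, edgeR adjusted p = 0.114) and Rps27 by -0.12 (SE 0.06, edgeR adjusted p = 0.125), none passing. Of the 10 members of both subunits listed for roles in signalling or disease, WT IL-2 gave 1 called higher and ortho IL-2 gave 2, Rps19 among the latter.

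The differences among members varied with their GC content. Across the 76 members, Spearman's coefficient between log2 fold change and transcript GC content was 0.56 with WT and 0.59 with ortho IL-2, and the values for all tested genes with a known GC content were 0.32 and 0.44. These are correlations across genes, which share the same libraries, and are given as descriptions. The 14 members with at least 55% GC lay 0.26 above their unstimulated mean (median, log2) in WT IL-2 replicate 1 and 0.36 above it in ortho IL-2 replicate 3. In the other stimulated libraries the same median was 0.05, 0.06, 0.18 and 0.14. The 13 members under 48% GC lay at -0.09 and -0.01 in the first pair of libraries and between -0.12 and 0.02 in the other four. The spread of the members' changes (SD of log2 fold changes) was 0.10 with WT and 0.15 with ortho IL-2, against 0.52 and 0.56 over all genes. Without the 2 libraries it was 0.06 and 0.11, and the coefficient was 0.34 and 0.61. With GC offsets it was -0.23 and -0.18. The coefficient with transcript length was -0.15 and -0.22, and with mean RPKM -0.36 and -0.31. GC content of the reads and IL-2 group both differed between libraries, and which of them set the members' pattern was not tested.

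**Figure D3:**
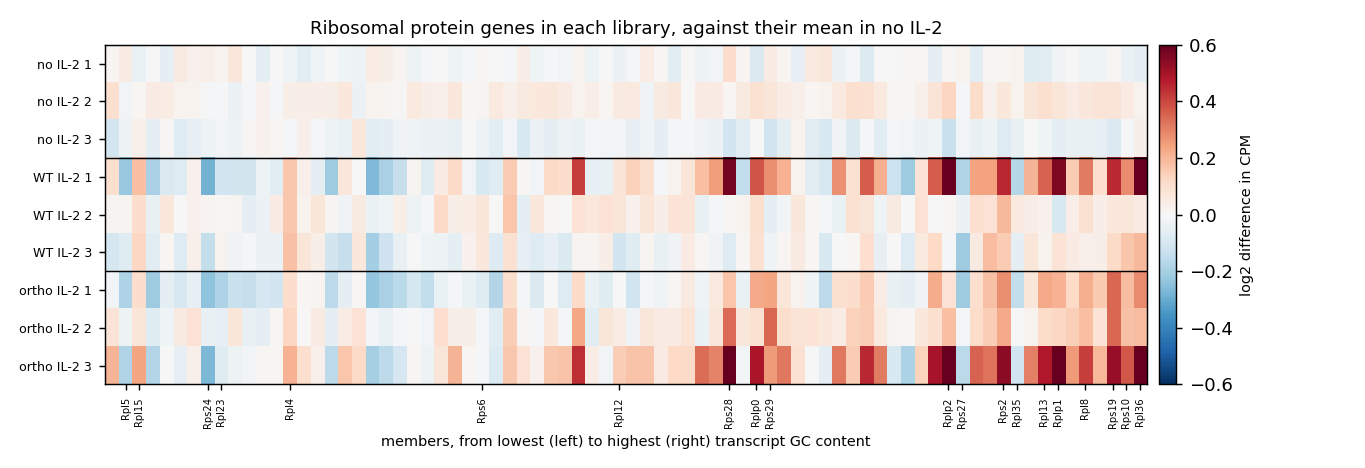
Log2 difference in CPM of each member (columns, ordered from lowest to highest transcript GC content) in each library (rows; some columns are named), from that member's mean over the 3 no IL-2 libraries; differences beyond 0.6 are drawn at the end of the colour scale. Most of the GC-rich members on the right, though not Rps27 and Rpl35, were high in WT IL-2 replicate 1 and ortho IL-2 replicate 3.

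**Figure D4:**
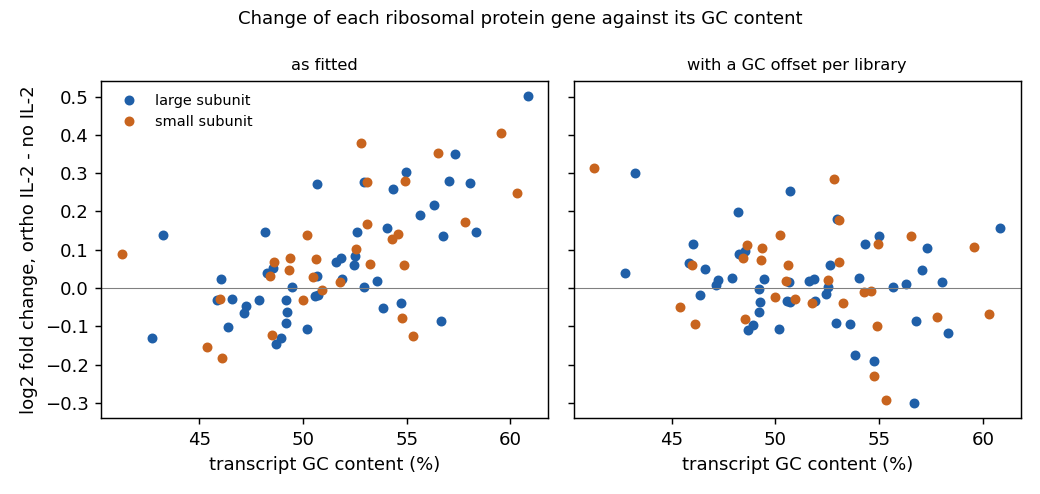
Log2 fold change of each member with ortho IL-2 (vertical axis) against the GC content of its transcript (horizontal axis, %), as fitted (left) and with a GC offset per library (right). The rise from left to right, a Spearman coefficient of 0.59 as fitted, is not seen with the offsets, where it is -0.18.

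Between ortho and WT IL-2, 0 of 76 members and 0% of all genes were called by edgeR. The count of members with an unadjusted p under 0.05 was 1, Rps29, and over all genes it was 149. Without WT IL-2 replicate 1 the latter was 2616, and without both libraries of high GC contrast 1684, with 0 genes called in either case. DESeq2 and each of the other alternatives also called 0 members. The groups did not overlap in 1 member, Rps18, against 4.65% of all genes. The median difference was 0.02 over large and 0.04 over small subunit members, and 50 of 76 differences were positive. The 95% intervals of the members' log2 differences lay within -0.35 to 0.60. The largest differences were 0.21 for Rps29 (95% interval 0.01 to 0.40) and 0.19 for Rps19 (-0.03 to 0.41). For the precisely measured Rpl4 the interval was -0.12 to 0.08, and for Rps6 -0.16 to 0.07. An adjusted p above the threshold does not show that the ligands act alike.

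Several ribosomal proteins fall outside the symbol rule, and 9 of the 13 found in the tables were tested. With WT IL-2, 2 were called higher and 0 lower, and with ortho IL-2, 4 higher and 0 lower, with a median of 0.17 in both. The share of all genes called higher was 25% and 28.5%. The 9 include Rps27rt, whose reads repeat those of an Rps27 row. Gnb2l1, now called Rack1, a signalling scaffold on the small subunit, was at 606, 662 and 610.5 CPM without cytokine, 761, 678 and 675 under WT IL-2 and 744, 696 and 832 under ortho IL-2. It passed with ortho IL-2 at 0.27 (SE 0.08, edgeR adjusted p = 0.0115). Fau, the source of eS30, differed by 0.17 (SE 0.11, edgeR adjusted p = 0.201) and turned to -0.15, called lower, with GC offsets. Rps3a1 differed by -0.12 (SE 0.05, edgeR adjusted p = 0.0855). The relatives called with both ligands were Rpl7l1, a nucleolar relative of Rpl7 that acts in assembly, and Rpl36al, a retained copy of Rpl36a. Rpl7l1 was at 45.5, 42.6 and 43.8 CPM without cytokine, 57.6, 57.7 and 59.3 under WT IL-2 and 59.1, 53.6 and 55.5 under ortho IL-2, with no overlap (log2 fold change 0.40, SE 0.05, edgeR adjusted p = 0.000133 for WT IL-2). Rpl36al was at 121, 122 and 113 CPM without cytokine, 141, 148 and 129 under WT IL-2 and 134, 147 and 143 under ortho IL-2 (log2 fold change 0.23, SE 0.06, edgeR adjusted p = 0.0113 for WT IL-2), and both passed with ortho IL-2 as well. Rpl22l1 and Rps27l differed by -0.13 and 0.14 with ortho IL-2 and were not called. The tissue-restricted relatives Rpl3l, Rpl10l, Rpl39l and Rps4l had 8, 1, 105 and 85 reads over all 9 libraries and were not tested.

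Copies limit what single members show. Rps27rt, which the tables place on chromosome 3 beside Rps27 but the RefSeq gene table on chromosome 9, held reads identical to those of an Rps27 row in 9 of 9 libraries, so it gives no value of its own. Rpl34-ps1 held 99.2% as many reads as Rpl34, with identical counts in 0 of 9 libraries. It too is placed on chromosome 3 with its member, while the RefSeq gene table puts it on chromosome 6. Whether the 2 rows count the same reads was not tested. Rpl31-ps12 held 30.2% as many as Rpl31, Rplp2-ps1 14.8% as many as Rplp2 and Rps19-ps3 7.88% as many as Rps19, with 14.3% and 7.20% as many as Rps15a in its copies Rps15a-ps6 and Rps15a-ps4, and how reads were divided between them is not given in the sources used here. GENCODE M21 names 293 copies of 55 members as pseudogenes, and 25 members overlap another gene, among them Rpl15, Rpl18, Rps2 and Rps10, whose reads could include those of the neighbour. Members lie on 19 chromosomes, with 14 on chromosome 7. Within their spans 29 of 76 members (38.2%) hold small nucleolar RNA genes on the same strand, 56 in all, against 1.88% of the 9636 protein-coding genes tested and matched.

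Related genes, none of them members, were counted in the same fits. Of 19 other genes with TOP mRNAs, mostly translation factors, 4 were called higher and 0 lower with WT IL-2, and 4 higher and 1 lower with ortho IL-2. The share of all genes called higher was 25% and 28.5%. The list's medians were -0.02 and -0.05. With GC offsets 6 were higher in each comparison, with 0 and 4 lower. Leaving out WT IL-2 replicate 1, or the first or the third no IL-2 library, left 2 higher with WT IL-2, and 5 were lower with ortho IL-2 in the first of these cases. Eif3l and Eef1g passed at 0.34 (SE 0.07, edgeR adjusted p = 0.00188) and 0.25 (SE 0.06, edgeR adjusted p = 0.00585), and Pabpc1, the poly(A)-binding protein, was the member of the list called lower, at -0.20 (SE 0.05, edgeR adjusted p = 0.00735). Vim, an intermediate filament gene, was at 809, 873 and 848 CPM without cytokine, 2449, 2318 and 2312 under WT IL-2 and 2286, 2183 and 2456 under ortho IL-2 (log2 fold change 1.45, SE 0.06, edgeR adjusted p = 3.87e-08). Of 13 chaperones and escorts that carry ribosomal proteins to the nucleus and onto the ribosomal RNA, 9 were higher with WT and 8 with ortho IL-2, and none was lower. Over the alternatives 6 to 11 and 6 to 12 were higher, with 6 for WT IL-2 when the second no IL-2 library or the third WT library was left out. Ipo5, a nuclear import receptor, was at 63.4, 69.6 and 70.8 CPM without cytokine, 146, 146 and 141 under WT IL-2 and 141, 137 and 139 under ortho IL-2, with no overlap between stimulated and unstimulated libraries (log2 fold change 1.09, SE 0.05, edgeR adjusted p = 1.14e-07 for WT IL-2). Grwd1, the chaperone of Rpl3, was at 2.80, 2.71 and 2.996 CPM without cytokine, 6.55, 6.36 and 6.001 under WT IL-2 and 7.003, 8.35 and 7.89 under ortho IL-2 (log2 fold change 1.16, SE 0.11, edgeR adjusted p = 1.37e-05). Rrs1, which loads the 5S RNP, was at 13.7, 15.1 and 12.5 CPM without cytokine, 24.7, 25.6 and 26.0 under WT IL-2 and 24.5, 24.9 and 24.5 under ortho IL-2 (log2 fold change 0.88, SE 0.07, edgeR adjusted p = 7.19e-06). Each of these 3 was called higher with both ligands in every alternative that tested it, GC offsets included.

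Of 16 regulators of TOP mRNAs and S6, 5 rose and 3 fell under WT IL-2, and 7 rose and 3 fell under ortho IL-2. Across the genes tested, 25% rose and 22.9% fell under WT IL-2. Under ortho IL-2 these shares were 28.5% and 27.4%. Whether the regulators differed from other genes in this respect was not tested. On the RPKM divisor 10 and 11 of the regulators were called higher, against 43.3% and 53.3% of all genes. Myc, a transcription factor that drives ribosome production, was at 22.7, 25.7 and 26.0 CPM without cytokine, 151, 130.004 and 125 under WT IL-2 and 132, 124 and 144 under ortho IL-2 (log2 fold change 2.45, SE 0.09, edgeR adjusted p = 3.01e-08). Larp1, which holds TOP mRNAs in an untranslated state when mTORC1 is off, was at 222, 219 and 232 CPM without cytokine, 409.8, 430.2 and 418 under WT IL-2 and 418, 408 and 393 under ortho IL-2 (log2 fold change 0.90, SE 0.04, edgeR adjusted p = 1.79e-07). Tsc1, part of a brake on mTORC1, was lower, at 92.5, 88.5 and 96.9 CPM without cytokine, 71.7, 69.1 and 65.9 under WT IL-2 and 72.8, 70.3 and 67.8 under ortho IL-2 (log2 fold change -0.43, SE 0.05, edgeR adjusted p = 0.000117). Mitochondrial ribosomal protein genes, also 76 in number, gave 20 higher and 1 lower with WT, and 26 higher and 3 lower with ortho IL-2, with medians of 0.14 and 0.13, where 25% and 28.5% of all genes were called higher. The RPKM divisor gave 46 and 55 higher, and quantile normalization 14 and 19. Mrps18b and Mrps2 passed at 0.58 (SE 0.11, edgeR adjusted p = 0.00182) and 0.57 (SE 0.08, edgeR adjusted p = 0.000371) with WT IL-2, and Mrpl9 was lower at -0.41 (SE 0.05, edgeR adjusted p = 0.000119). The difference between the mitochondrial and cytosolic lists was not tested.

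**Figure D5:**
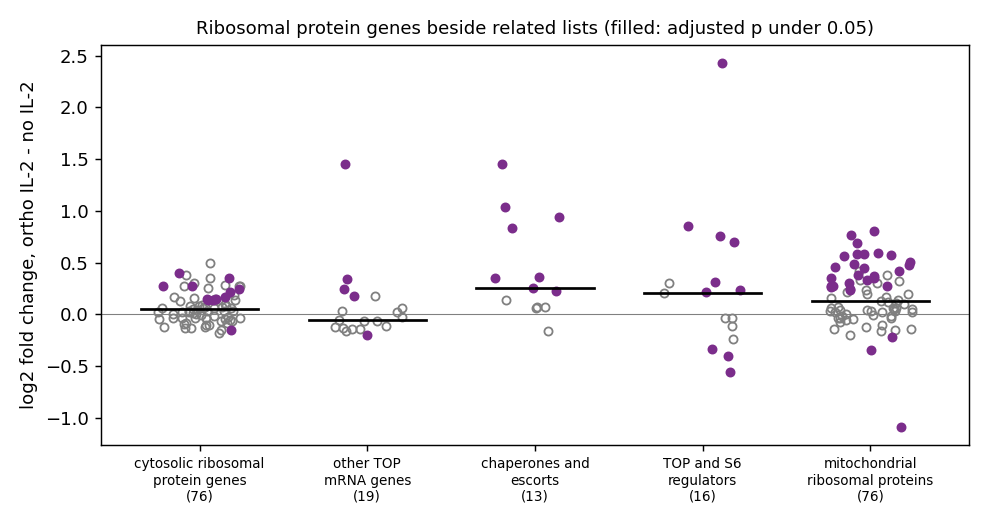
Log2 fold change with ortho IL-2 (vertical axis) of the genes of each list (horizontal axis, with the number tested); filled points have an edgeR adjusted p under 0.05 and black lines are medians. Cytosolic ribosomal protein genes stay between -0.18 and 0.50, while each of the other 4 lists drawn holds a gene with a change above 0.8.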

How the data were processed

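Libraries of mRNA, 3 per group, were analysed. Each deposited table holds 31682 RefSeq transcripts with raw read counts and RPKM, per the file headers. The deposited RPKM is the count scaled by transcript length and by a library total, here called the RPKM divisor. The submitters' processing notes name bedtools 2.25.0, Bowtie2, edgeR, SAMtools 0.1.8, TopHat2 and the build mm10, without the role of each, and the annotation release was not given in those notes. For each symbol the transcript with the most reads was taken, which for all 76 members is also the longest. Genes that reached 1 RPKM in 3 or more of the 9 libraries (10702) were tested on counts by the two-sided quasi-likelihood test of edgeR 4.0.16 (R 4.3.3), with TMM scaling and a term per group over all 9 libraries. Adjustment was by Benjamini-Hochberg over all genes tested, with a threshold of 0.05. The script was tested on simulated data. SEs come from the F statistic, and 95% intervals from a t distribution. GC offsets are a smooth (span 0.3) of each library's log ratio to the mean library on transcript GC content from GENCODE M21. Alternatives were other scalings, filters and transcripts, DESeq2 1.42.0, limma 3.58.1 on log2(RPKM + 1), GC offsets and leaving out libraries. The one without both libraries of high GC contrast was chosen after seeing the data. The members, lists and tests were chosen with earlier results of these data known. Genes were named by rule: the 5 highest and 5 lowest members by RPKM, per comparison the 4 members of each subunit and direction with the smallest p among those called and the 2 of each subunit with the largest change, the members of 5 lists (P stalk, 5S RNP, peptidyl transferase, exit platform, beak), Rps6, Rps19, Rpl22, Rpl38, the relatives, and up to 3 genes of each other list. Pabpc1, Rpl32, Rpl35, Rps20, the copies and the motifs were chosen after their values were seen. A few genes that the rule names are not reported here. Sequences are from RefSeq tables on GRCm38.p6, the assembly of mm10. At this depth 3 reads, the floor taken, correspond to 0.0516 to 0.181 CPM, and such floors cover counting error only.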

Additional observations from a re-analysis of the deposited data

How the results depend on the processing

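Each comparison was repeated under 25 alternatives. Relative to the median of all genes, the median of large subunit members stayed within -0.01 to 0.09 with WT, 0.00 to 0.12 with ortho IL-2 and -0.02 to 0.06 between ligands, and that of small subunit members within -0.01 to 0.12, 0.01 to 0.16 and 0.01 to 0.07. The counts of called members were less stable. For WT IL-2 (4 higher, 0 lower in the main analysis), the RPKM divisor gave 38 higher with medians of 0.23 and 0.26, limma on RPKM 27 with 0.23 and 0.26, no filter 7 with a large subunit median of 0.068, quantile normalization a large subunit median of 0.067, a minimum RPKM of 5 gave 2 higher and 2 lower, and GC offsets 1 lower. For ortho IL-2 (11 higher, 1 lower), the RPKM divisor gave 65 and 0 with medians of 0.31 and 0.35, limma on RPKM 59 and 0 with 0.30 and 0.35, upper quartile scaling 18 and 0, quantile normalization 22 higher with a large subunit median of 0.10, DESeq2 17 and 3, no filter 23 and 0 with a large subunit median of 0.10, a minimum RPKM of 5 gave 4 lower, the groups compared alone 19 and 2, GC offsets 3 lower, and the 2 libraries of high GC contrast left out 19 and 2. Of all genes, the RPKM divisor called 43.3% higher with WT and 53.3% with ortho IL-2, and limma on RPKM 41.7% and 52.3%. The medians of all genes were 0.22 and 0.29 on the divisor and 0.19 and 0.25 by limma on RPKM. With no filter, 16.3% and 19.5% of all genes were called higher. In the other settings named here for ortho IL-2 this share was 26.3% to 30.4%. Between ligands the large subunit median was 0.081 on the divisor and 0.078 by limma on RPKM. Leaving out single libraries gave 1 to 6 higher and 0 to 3 lower with WT IL-2 and 4 to 21 higher and 0 to 5 lower with ortho IL-2. In these fits 20.3% to 25.7% of all genes were called higher with WT IL-2 and 23.0% to 31.6% with ortho IL-2. The shares called lower were 17.7% to 24.3% and 21.3% to 30.3%. The share of reads in members was 2.74%, 3.22% and 3.42% on the divisor and 3.72%, 3.77% and 3.85% with all transcript rows summed, in no, WT and ortho IL-2. With GC offsets the sign turned for 24 of 76 members with WT and 20 with ortho IL-2, most of them not called. Among members called with or without the offsets, it turned for Rpl18 (-0.12), Rps10 (-0.067) and Rps15 (-0.076) with ortho IL-2. Of the related genes, Fau turned (-0.14 with WT and -0.15 with ortho IL-2). Adding a replicate block gave -0.077 for Rps15 and otherwise the same values for these genes. The sign also turned for further related genes called with or without the offsets. Among them were Eef1d (-0.025 with WT and -0.11 with ortho IL-2) and Nap1l1 (0.14 and 0.10). Signs turned with ortho IL-2 on the divisor for Rpl10 (0.26), Rpl19 (0.24), Rpl22 (0.22), Rpl38 (0.23), Rps6 (0.25), Rps14 (0.20) and Rps15a (0.12), and by limma on RPKM for Rpl10 (0.25), Rpl19 (0.24), Rps6 (0.25) and Rps15a (0.12). The divisor raises all genes together, as stated above, and the RPKM that limma used is scaled by the same divisor. For the other changes the cause was not tested.

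The labels do not say whether a replicate number marks a shared mouse or culture. Between groups, deviations from the group means correlated at -0.66 to 0.44 for same-numbered libraries. For libraries of different numbers the range was -0.57 to 0.60. Such deviations come from 3 libraries per group, so they neither show nor exclude a pairing. A replicate block gave 2 higher and 1 lower with WT and 9 higher and 1 lower with ortho IL-2, and with GC offsets added 3 higher and 2 lower with WT and 7 higher and 7 lower with ortho IL-2.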
